A study of Rattus norvegicus with 16 samples.

Results

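Transcripts of 10 genes that mark subtypes of GABAergic interneurons (Pvalb, Lamp5, Vip, Npy, Cck, Nos1, Calb1, Calb2, Reln and Th) were followed in brain tissue of adult rats exposed to fentanyl or to saline around birth. The genes were taken by symbol from a table of read counts for 33294 genes. All 10 had a row, and all 10 were among the 17856 genes that passed the filter on low counts. Fentanyl is a synthetic opioid. The tissue was labelled as central amygdala and was taken from all animals in adulthood, on the day that followed the last of a series of sessions abbreviated as IVSA. There were 6 fentanyl males, 2 fentanyl females, 6 saline males and 2 saline females, 1 library each. The sources used here give no dose, strain, age or litter, so p-values measure the spread between these libraries and make no allowance for littermates.

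Interneurons are local inhibitory neurons. They are sorted by the calcium-binding proteins they hold (parvalbumin, calbindin, calretinin), the peptides they release (vasoactive intestinal peptide, neuropeptide Y, cholecystokinin), the enzymes of their small messengers (neuronal nitric oxide synthase, tyrosine hydroxylase) and by reelin and Lamp5. The central amygdala and the neighbouring striatum are themselves built mainly of GABAergic projection neurons, and several of the 10 genes are also expressed by such cells; calbindin, for example, is a classical marker of spiny neurons of the striatal matrix. In tissue RNA, fewer cells of a type and less RNA per cell cannot be told apart.

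The labels give each library a number: 1 to 6 in fentanyl males, 1 and 2 in fentanyl females, 1, 2 and 9 to 12 in saline males, and 10 and 11 in saline females. What the numbers stand for is not given. In females the fentanyl libraries carry only low and the saline libraries only high numbers. Exposure values in females, and those of females minus males, therefore cannot be told apart from a difference by library number. In males and over both sexes, exposure is partly tied to library number too. No fentanyl library is numbered 9 to 12, and of the saline libraries only males numbered 1 and 2 carry low numbers. In the saline males, replicates 1 and 2 carry the numbers 1 and 2, and replicates 3 to 6 the numbers 9 to 12. Total counts ran from 12879701 to 22426428 per library, and levels are counts scaled to a common library total with TMM factors, in CPM. Transcripts of inhibitory neurons were read in every library: Gad1, which encodes a GABA-synthesizing enzyme, lay between 446 and 683 CPM in fentanyl and between 482 and 709 CPM in saline libraries. Of the defining central amygdala markers, Prkcd had 11.3 to 23.4 CPM in fentanyl and 11.2 to 33.3 CPM in saline libraries, and Crh had 2.08 to 10.8 CPM in fentanyl and 0.52 to 17.2 CPM in saline libraries. The summed level of 14 striatal spiny neuron markers, all of them tested and none of the 3 defining ones at 0, was 5419 to 12232 CPM in fentanyl and 2460 to 9729 CPM in saline libraries. The saline males numbered 1 and 2 stood apart from those numbered 9 to 12 in these lists, with 7761 and 9729 CPM against 2460 to 4212 CPM of striatal markers, and with 6997 and 9553 CPM against 11057 to 32484 CPM of 8 myelin markers. Saline male replicate 3 also stood apart, with 135 CPM of 11 glutamatergic neuron markers against 22.1 to 54.8 CPM in every other library.

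None of the 10 markers passed the test between the exposures. Over both sexes, with sex as a term, edgeR's quasi-likelihood test called 0 of 10 at an adjusted p under 0.05, beside 14 of 17856 genes (0.0784%). At an unadjusted p under 0.05 there was 1 marker, Lamp5, beside 7.27% of all genes. In males 0 of 10 were called (all genes 0.0392%), with Lamp5 and Vip at an unadjusted p under 0.05 (all genes 4.13%). In females no gene was called by that test (0%), nor by limma voom, and 20 genes, none of them a marker, were called by DESeq2; Lamp5 was the marker at an unadjusted p under 0.05 (all genes 14.3%). The median log2 fold change of the 10 markers was -0.07 over both sexes, -0.25 in males and 0.73 in females, beside -0.01, -0.01 and -0.01 for all genes tested. The female values lean on single libraries. Without fentanyl female replicate 2, those of Npy, Cck, Nos1, Calb2 and Reln fell below 0 (-0.04, -0.07, -0.45, -0.07 and -0.09). Lamp5, Vip, Calb1 and Th stayed above 0 there, and Pvalb stayed below. On simulated counts with the same groups, a 2-fold change over both sexes was recovered for 76.1% of changed genes and one of 1.5-fold for 62.7%, over 17606 genes; in females the shares were 47.8% and 1.49%, over 17620 genes. The changed genes in these simulations were drawn at random from genes averaging at least 1 CPM, more than Vip and Th. The simulated libraries were drawn independently. Every marker varied more over the real libraries than the typical gene, as given below, so these shares do not describe the markers. The SE of their log2 fold changes over both sexes ran from 0.15 for Lamp5 to 0.70 for Vip.

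Among the saline males themselves, 3 of 10 markers were called between libraries numbered 1 and 2 and those numbered 9 to 12, beside 3201 genes (17.9%). Calb1 and Reln were higher, beside 8.27% of all genes, and Pvalb was lower, beside 9.66%. This contrast leans on single libraries. Without saline male replicate 2, 193 genes (1.09%) and 1 marker, Calb1, were called. Every marker also varied more over the 16 libraries than the typical gene. The SD of log2 CPM ran from 0.44 for Cck to 1.34 for Pvalb, against a median of 0.30 over all genes tested. Pvalb varied more than 99.6% of tested genes, Vip more than 99.4% and Calb2 more than 98.9%, while Cck exceeded 71.4%. Vip and Th had at most 74 and 34 reads in a library, so their spread holds counting error too.

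**Figure D1:**
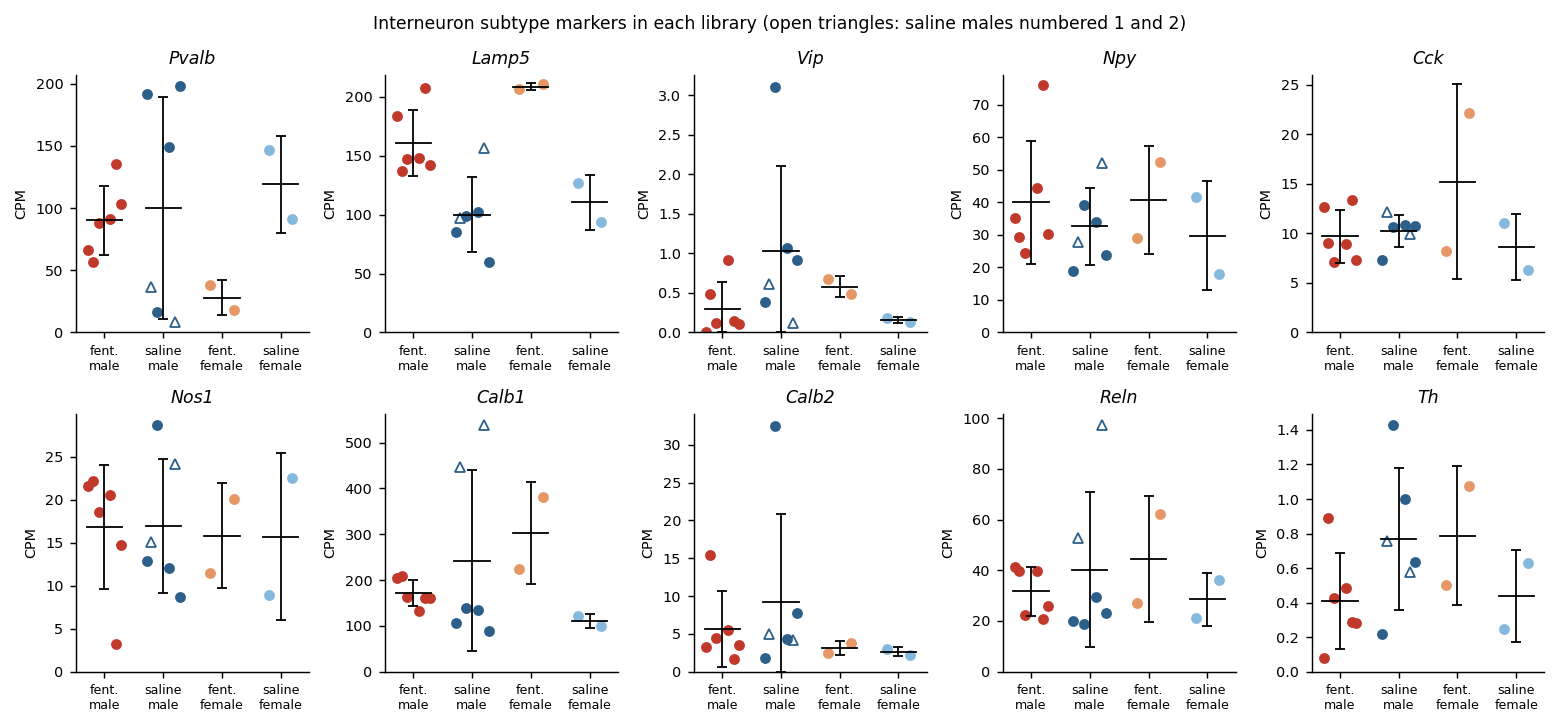
Level (CPM, linear axes from 0) of each of the 10 markers in each of the 16 libraries, by group; black lines are the mean ± SD (n = 6 per male group, n = 2 per female group; bars are cut at 0). Open triangles are the saline males numbered 1 and 2, which hold the highest Calb1 levels of all libraries; number 2 also has the highest Reln and the lowest Pvalb level.

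Lamp5, a brain-specific member of the lysosome-associated membrane protein family that marks neurogliaform interneurons, was the marker nearest to a difference between the exposures. It had 137, 148 and 208 CPM (lowest, median and highest) in fentanyl males and 59.6, 97.9 and 156 CPM in saline males. Fentanyl females had 206 and 211 CPM, against 127 and 93.9 CPM in saline females. All 8 fentanyl libraries lay above the saline median, and 7 of 8 saline libraries lay below the lowest fentanyl library; the exception was saline male replicate 2, at 156 CPM. The mean was 173 ± 32.4 CPM in the fentanyl and 102 ± 28.7 CPM in the saline libraries (SD, n = 8 each). The log2 fold change was 0.75 ± 0.15 (SE), with an adjusted p of 0.119 by edgeR's quasi-likelihood test. In males the log2 fold change was 0.69 ± 0.18 and in females 0.92 ± 0.32, and neither passed (adjusted p = 0.523 and 0.333). The female groups did not overlap, which was so for 48.8% of all genes tested.

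The Lamp5 call depended on the tool and on the saline libraries. DESeq2 called it over both sexes (adjusted p = 0.00346, beside 0.487% of all genes), and so did limma voom with quality weights (adjusted p = 0.00243, beside 5.77%). Limma voom also called it in males (log2 fold change 0.66, adjusted p = 0.0198, beside 0.487% of all genes). The edgeR test called it without saline male replicate 2 (log2 fold change 0.88, adjusted p = 0.00913, beside 0.163% of all genes), and without the saline males numbered 1 and 2 (0.91, adjusted p = 0.00407, beside 6.9%). In males, the log2 fold change was 0.34 ± 0.21 against the saline libraries numbered 1 and 2 (adjusted p = 0.386) and 0.90 ± 0.17 against those numbered 9 to 12 (adjusted p = 0.0414, beside 0.4% of all genes); the same fentanyl males enter both values. Lamp5 itself had 96.8 and 156 CPM in saline males numbered 1 and 2, against 99.0, 102, 84.9 and 59.6 CPM in those numbered 9 to 12. That difference did not pass (log2 fold change 0.55 ± 0.23, adjusted p = 0.111). Striatal markers moved with Lamp5: their mean log2 CPM had a Pearson r of 0.83 with it over the 16 libraries (Spearman rho 0.83, adjusted permutation p = 0.00175 and 0.00289). The r was 0.85 within the 8 fentanyl and 0.76 within the 8 saline libraries, and 0.77 without the 2 libraries farthest from the striatal median. Between the exposures over both sexes, all 14 striatal markers lay above a log2 fold change of 0 and none was called. Their median was 0.49, beside -0.01 for all genes tested. In males 13 of 14 lay above 0 (median 0.36) and in females all 14 (median 0.84). The part of the striatal markers in the Lamp5 difference was not tested.

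The promoter of Lamp5 is shown because this gene lay nearest to a difference between the exposures. It comes from RefSeq in build GRCr8 (the counts were made on rn7) and spans 250 bases before to 50 bases after the annotated start, at chr3:143824947-143825246 on the plus strand; all promoters are written 5′ to 3′ along the gene's own strand. Searched on both strands, it held no TATAAA, which is in 14.2% of 33469 promoters of that length, no GGGCGG (33.1%) and no cyclic AMP response element TGACGTCA (1.83%). No base is therefore in capitals.
Lamp5: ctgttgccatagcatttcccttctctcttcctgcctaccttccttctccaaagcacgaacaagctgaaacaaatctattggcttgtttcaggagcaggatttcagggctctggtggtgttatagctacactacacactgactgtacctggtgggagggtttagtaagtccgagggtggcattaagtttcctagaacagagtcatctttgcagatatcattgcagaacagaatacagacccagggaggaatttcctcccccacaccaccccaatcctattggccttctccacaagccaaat

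**Figure D2:**
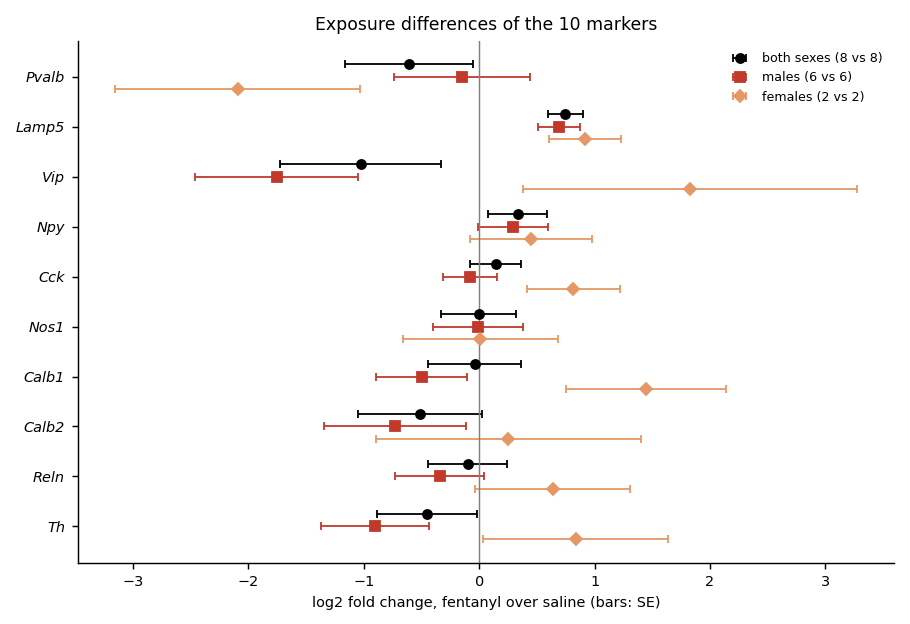
Log2 fold change of fentanyl over saline (x axis; bars are SE) for each marker over both sexes, in males and in females. Lamp5 is the marker whose 3 estimates, 0.75, 0.69 and 0.92, all lie more than 2 SE above 0, and the female estimates carry the widest bars.

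Parvalbumin (Pvalb), a calcium buffer of fast-spiking basket cells among other neurons, was the most variable of the 10. It had 57.0, 89.4 and 135 CPM (lowest, median and highest) in fentanyl males and 8.63, 92.8 and 198 CPM in saline males. The saline males enclosed the fentanyl males on both sides: 3 lay below the lowest and 3 above the highest fentanyl male. The log2 fold change in males was -0.15 ± 0.59, with an interval of 2 SE from -1.33 to 1.02. Fentanyl females had 37.9 and 17.9 CPM, against 147 and 91.5 CPM in saline females, without overlap (48.8% of all genes), a log2 fold change of -2.10 ± 1.06 (adjusted p = 0.368). Myelin markers summed to 18583 and 7852 CPM in the same fentanyl females and to 25070 and 24453 CPM in the saline females. Over both sexes the log2 fold change of Pvalb was -0.61 ± 0.55 (adjusted p = 0.829).

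By library number, Pvalb had 36.8 and 8.63 CPM in saline males numbered 1 and 2, against 16.5, 149, 191 and 198 CPM in those numbered 9 to 12. The numbers 10, 11 and 12 were high and number 9 was low, so the sets overlapped. Pvalb was lower in the first set by a log2 fold change of -2.62 ± 0.79 (adjusted p = 0.0320, edgeR's quasi-likelihood test). The call was lost without saline male replicate 2 (-1.91, adjusted p = 0.273), replicate 5 (-2.42, adjusted p = 0.0639) or replicate 6 (-2.38, adjusted p = 0.0718), and the value was -3.99 without replicate 1 (still called) and -3.00 without replicate 3. It was also lost in a fit of the saline males alone (-2.62, adjusted p = 0.122). The fentanyl males, the same in both values, had a log2 fold change of 1.99 ± 0.52 against numbers 1 and 2 (adjusted p = 0.0449, beside 5.47% of all genes) and -0.61 ± 0.46 against numbers 9 to 12 (adjusted p = 0.660). Myelin markers moved with Pvalb. Their mean log2 CPM had an r of 0.87 with it over the 16 libraries (rho 0.91, adjusted permutation p = 0.00175 and 0.00105), 0.91 within the fentanyl and 0.86 within the saline libraries, and 0.93 without the 2 libraries farthest from the myelin median. The mean of 6 cholinergic and pallidal markers had an r of 0.52 with Pvalb (rho 0.43, adjusted permutation p = 0.167 and 0.295). The part of either list in these differences was not tested.

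The promoters of Pvalb and Reln are shown as those of the genes called between the saline sets that the RefSeq table holds. Pvalb lies at chr7:111666240-111666539 on the minus strand and Reln at chr4:13628318-13628617 on the plus strand of GRCr8. Capitals mark GGGCGG, which was found 1 time for Pvalb and 4 times for Reln, and neither held TATAAA or TGACGTCA.
Pvalb: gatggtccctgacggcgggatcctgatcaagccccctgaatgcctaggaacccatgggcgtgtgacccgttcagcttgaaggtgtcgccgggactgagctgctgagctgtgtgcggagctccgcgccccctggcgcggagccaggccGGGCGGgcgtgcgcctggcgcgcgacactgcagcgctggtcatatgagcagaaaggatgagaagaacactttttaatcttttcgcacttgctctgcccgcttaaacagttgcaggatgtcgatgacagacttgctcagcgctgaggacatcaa
Reln: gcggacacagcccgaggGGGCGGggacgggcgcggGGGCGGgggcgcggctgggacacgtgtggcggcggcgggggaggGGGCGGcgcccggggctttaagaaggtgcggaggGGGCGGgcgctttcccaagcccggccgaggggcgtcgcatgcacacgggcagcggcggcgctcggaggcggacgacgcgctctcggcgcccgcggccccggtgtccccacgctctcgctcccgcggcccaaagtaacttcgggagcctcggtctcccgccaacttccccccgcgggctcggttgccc

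Calbindin (Calb1), a calcium buffer of interneurons and of striatal spiny neurons, showed the clearest difference between the saline sets. It had 447 and 538 CPM in saline males numbered 1 and 2, against 139, 135, 106 and 89.1 CPM in those numbered 9 to 12. The sets did not overlap, which was so for 44.8% of all genes tested. Calb1 was higher in the first set by a log2 fold change of 2.07 ± 0.22, a 4.20-fold difference (adjusted p = 0.000321, edgeR's quasi-likelihood test), and the value lay between 1.93 and 2.21 when any 1 library was left out. Fentanyl males had 133, 162 and 209 CPM (lowest, median and highest), all below the first set and overlapping the second. Their log2 fold change was -1.53 ± 0.19 against numbers 1 and 2 (adjusted p = 0.00652) and 0.55 ± 0.18 against numbers 9 to 12 (adjusted p = 0.178). Against all 6 saline males it was -0.50 ± 0.39 (adjusted p = 1).

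In females Calb1 had 223 and 381 CPM in the fentanyl and 122 and 100.1 CPM in the saline libraries, without overlap (48.8% of all genes). These female groups also differ in library number, which cannot be told apart from exposure. Striatal markers summed to 8239 and 12232 CPM in the fentanyl and 5297 and 5406 CPM in the saline females. The log2 fold change was 1.44 ± 0.69 (adjusted p = 0.354), and a fit of the females alone called it (1.45, adjusted p = 0.0490, beside 0.387% of all genes). Over both sexes the value was -0.04 ± 0.40 (adjusted p = 0.985); without the saline males numbered 1 and 2 it was 0.81 and called (adjusted p = 0.0176, beside 6.9% of all genes). The difference of the exposure effect, females minus males, was 1.94 ± 0.80 on the log2 scale (unadjusted p = 0.0272, adjusted p = 0.570 by edgeR). Calb1 had an r of 0.75 with the striatal list mean (rho 0.84, adjusted permutation p = 0.0148 and 0.00289) and of -0.87 with the myelin list mean (rho -0.80, adjusted permutation p = 0.00175 and 0.00630). Within the fentanyl and saline libraries these r were 0.84 and 0.78 for the striatal list, and -0.86 and -0.89 for the myelin list. Without the 2 farthest libraries they were 0.79 and -0.78. The part of either list in the Calb1 differences was not tested. Calb1 and Pvalb ran in opposite directions (r = -0.79, rho -0.80, adjusted permutation p = 0.0105 and 0.00630), with an r of -0.93 within the fentanyl libraries, -0.76 within the saline libraries and -0.88 without the 2 farthest.

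Calretinin (Calb2), the calcium buffer of bipolar interneurons, was low except in a pair of libraries. It had 1.65, 3.97 and 15.4 CPM (lowest, median and highest) in fentanyl males and 1.85, 4.66 and 32.5 CPM in saline males. The high values were those of fentanyl male replicate 1 and saline male replicate 3; that of the saline library, from 774 reads, was 8.13 times the median of all libraries. Fentanyl females had 2.51 and 3.75 CPM, against 3.06 and 2.20 CPM in saline females. The log2 fold change over both sexes was -0.51 ± 0.54 (adjusted p = 0.848), and it was 0.28 without saline male replicate 3. Between the saline sets, with 4.94 and 4.23 CPM for numbers 1 and 2 against 32.5, 4.37, 1.85 and 7.71 CPM for numbers 9 to 12, the value was -1.36 ± 0.93 (adjusted p = 0.346). The mean of 8 central amygdala markers moved with Calb2 (r = 0.79, rho 0.86, adjusted permutation p = 0.00966 and 0.00289), with an r of 0.82 within the fentanyl and 0.79 within the saline libraries and 0.79 without the 2 farthest. Saline male replicate 3 was also the library with the most Slc17a7, a glutamate transporter of cortical and basolateral projection neurons, at 68.1 CPM, against 0.62 to 3.33 CPM in the fentanyl libraries and a saline median of 1.12 CPM.

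**Figure D3:**
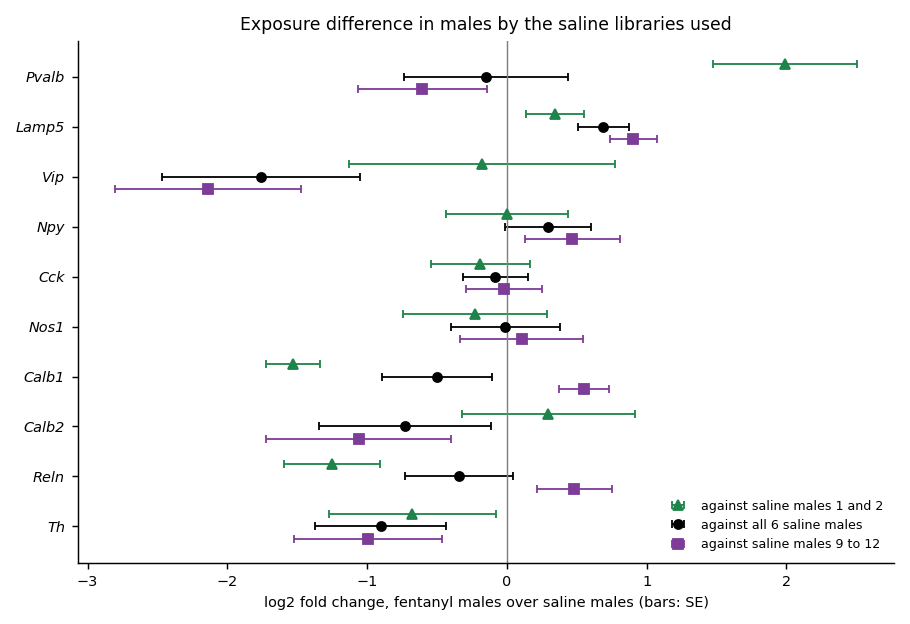
Log2 fold change of fentanyl males over saline males (x axis; bars are SE) against the saline males numbered 1 and 2, all 6, and those numbered 9 to 12; the 6 fentanyl males are the same in each. Pvalb (1.99 and -0.61), Calb1 (-1.53 and 0.55) and Reln (-1.25 and 0.48) change sign with the saline set. Calb2 and Nos1 change sign too, while Lamp5 stays above 0 (0.34 and 0.90).

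Reelin (Reln) is a secreted glycoprotein that acts through the receptors Vldlr and Lrp8 and the adaptor Dab1. It had 20.7, 32.8 and 41.4 CPM (lowest, median and highest) in fentanyl males and 18.8, 26.3 and 97.3 CPM in saline males. Saline males numbered 1 and 2 had 52.7 and 97.3 CPM, against 18.8, 29.3, 19.9 and 23.3 CPM in those numbered 9 to 12, without overlap (44.8% of all genes). Reln was higher in the first set by a log2 fold change of 1.72 ± 0.35 (adjusted p = 0.00611, edgeR's quasi-likelihood test); without saline male replicate 2 it was 1.21 and the call was lost (adjusted p = 0.131). In males the exposure value was -0.34 ± 0.39 (adjusted p = 1) against all saline males, -1.25 ± 0.35 against numbers 1 and 2 (adjusted p = 0.0549) and 0.48 ± 0.27 against numbers 9 to 12 (adjusted p = 0.485). Fentanyl females had 26.9 and 62.0 CPM, against 21.2 and 36.0 CPM in saline females, a log2 fold change of 0.64 ± 0.67 (adjusted p = 0.654). Reln moved with the striatal list mean (r = 0.67, rho 0.69, adjusted permutation p = 0.0320 and 0.0450), with an r of 0.56 within the fentanyl and 0.85 within the saline libraries and 0.66 without the 2 farthest. The part of the striatal markers in these differences was not tested.

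Neuropeptide Y (Npy), which neurogliaform cells and the long-range nitric oxide synthase cells release, had 24.5, 32.6 and 76.1 CPM (lowest, median and highest) in fentanyl males and 18.9, 30.8 and 51.9 CPM in saline males. Fentanyl females had 28.9 and 52.3 CPM, against 41.6 and 17.9 CPM in saline females. The groups overlapped in both sexes, and the log2 fold change over both was 0.33 ± 0.26 (adjusted p = 0.819), with an interval of 2 SE from -0.19 to 0.85. Npy followed Lamp5 over the libraries (r = 0.63, rho 0.71, adjusted permutation p = 0.0458 and 0.0450), with an r of 0.58 within the fentanyl and 0.73 within the saline libraries and 0.54 without the 2 farthest.

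Cholecystokinin (Cck), a peptide of basket cells and of many glutamatergic neurons, was the steadiest of the 10. It had 7.09, 8.96 and 13.4 CPM in fentanyl males and 7.35, 10.7 and 12.1 CPM in saline males, as lowest, median and highest. Fentanyl females had 8.25 and 22.2 CPM, against 10.99 and 6.28 CPM in saline females, with fentanyl female replicate 2 the highest of all libraries. The female log2 fold change was 0.82 ± 0.41 (adjusted p = 0.362), and -0.07 without that library. In males the value was -0.08 ± 0.23, with an interval of 2 SE from -0.55 to 0.39.

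Vasoactive intestinal peptide (Vip), the peptide of interneurons that inhibit other interneurons, was at the edge of detection, with 0 to 17 reads in fentanyl and 2 to 74 reads in saline libraries. Fentanyl males had 0, 0.13 and 0.92 CPM (lowest, median and highest), against 0.12, 0.77 and 3.10 CPM in saline males; a count of 0 in fentanyl male replicate 5 allows up to 0.24 CPM. Fentanyl females had 0.67 and 0.48 CPM, against 0.19 and 0.13 CPM in saline females, overlapping in males and not in females (48.8% of all genes). The log2 fold change was -1.76 ± 0.71 in males (unadjusted p = 0.0250, adjusted p = 1 by edgeR) and 1.83 ± 1.45 in females (adjusted p = 0.537). The difference of the effects, females minus males, was 3.59 ± 1.60 (unadjusted p = 0.0397, adjusted p = 0.570), and no gene was called in that contrast by edgeR, against 4 by DESeq2 and 0 by limma voom, with 8.23% of all genes at an unadjusted p under 0.05. Saline male replicate 3, the library with the most Slc17a7 and Calb2, held the most Vip too. Without it the value in males was -0.97.

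Of the 11 receptors and adaptors of these peptides and of reelin that were listed, all were tested. None was called between the exposures over both sexes, in males or in females. Over both sexes 3 had a log2 fold change above 0 and 8 had one below 0. The 3 with the smallest p over both sexes were Vipr2, a receptor for vasoactive intestinal peptide (log2 fold change -0.43 ± 0.18, adjusted p = 0.636), Adcyap1r1, the receptor of the related peptide PACAP (-0.25 ± 0.16, adjusted p = 0.778), and Npy2r, a presynaptic neuropeptide Y receptor (-0.45 ± 0.33, adjusted p = 0.811). Between the saline sets 2 of 11 were called higher and 1 lower in numbers 1 and 2, beside 8.27% and 9.66% of all genes. Vipr1 was higher by 1.00 ± 0.18 (9.21 CPM on average, against 4.58 CPM in numbers 9 to 12) and Dab1 by 0.56 ± 0.19. Vipr2 was lower by -0.89 ± 0.24, at 2.51 CPM, against 4.63 CPM. The adjusted p-values of these 3 were 0.00289, 0.0472 and 0.0194 by edgeR's quasi-likelihood test.

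Neuronal nitric oxide synthase (Nos1) makes the diffusible messenger nitric oxide. It had 3.23, 19.6 and 22.2 CPM (lowest, median and highest) in fentanyl males and 8.63, 14.0 and 28.7 CPM in saline males. Fentanyl females had 11.5 and 20.1 CPM, against 8.87 and 22.5 CPM in saline females. The log2 fold change over both sexes was -0.01 ± 0.33, with an interval of 2 SE from -0.66 to 0.65. A single library departed: fentanyl male replicate 2 had 45 Nos1 reads, or 3.23 CPM (95% Poisson interval 2.36 to 4.33, counting error only), against 14.7 to 22.2 CPM in the other fentanyl males. Without it the value over both sexes was 0.16. That library also had the least of 33 other interneuron genes in sum (1784 CPM, against 1866 to 2550 CPM in the others) and the lowest Gad2, at 40.0 CPM, against 88.8 to 288 CPM in saline libraries. Other markers were high there: its Npy, at 76.1 CPM, was the highest of the 16 libraries, and its Pvalb (135 CPM) and Lamp5 (208 CPM) were the highest of the fentanyl males. It also had the most myelin markers (34281 CPM in sum) and endothelial markers (378 CPM in sum, against 131 to 230 CPM in the others) of all libraries. The part of these in the Nos1 value was not tested.

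Of 7 partners of nitric oxide synthase, none was called between the exposures. Over both sexes the smallest p were those of Gucy1a1 and Gucy1b1, subunits of soluble guanylyl cyclase, the receptor of nitric oxide. Gucy1a2, another subunit on the list, was not among the 3 smallest. Gucy1a1 had 265 ± 34.3 CPM in the fentanyl and 181 ± 43.1 CPM in the saline libraries (SD, n = 8 each). Its log2 fold change was 0.55 ± 0.13 (adjusted p = 0.220 by edgeR), and that of Gucy1b1 0.34 ± 0.15 (adjusted p = 0.661). Dlg4, the postsynaptic scaffold that binds the synthase, had 0.28 ± 0.17 (adjusted p = 0.767). Between the saline sets 3 of 7 were called higher in numbers 1 and 2, beside 8.27% of all genes: Gucy1b1 by 0.77 ± 0.17, Gucy1a1 by 0.67 ± 0.15 and Dlg4 by 0.74 ± 0.17, with adjusted p-values of 0.00757, 0.00768 and 0.00901.

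Tyrosine hydroxylase (Th), the rate-limiting enzyme of catecholamine synthesis, marks a sparse class of interneurons in the rodent striatum and cortex as well as the dopamine and noradrenaline neurons of the brainstem. It was at the edge of detection, with 1 to 20 reads in fentanyl and 4 to 34 reads in saline libraries. Fentanyl males had 0.08, 0.36 and 0.89 CPM (lowest, median and highest), against 0.22, 0.69 and 1.43 CPM in saline males. Fentanyl females had 0.50 and 1.07 CPM, against 0.25 and 0.63 CPM in saline females. The groups overlapped in both sexes, and the log2 fold change was -0.90 ± 0.47 in males (adjusted p = 1) and 0.84 ± 0.80 in females (adjusted p = 0.616). The difference of the effects was 1.74 ± 0.93 (adjusted p = 0.570). Of 11 other catecholamine genes 6 were tested; Slc6a3, the dopamine transporter, had 0 or 1 read in every library, and Dbh, which makes noradrenaline, 0 to 3. None was called between the exposures. Of these 6, the smallest p over both sexes was that of the transcription factor Nr4a2 (-0.59 ± 0.36, adjusted p = 0.760). Nr4a2 is not particular to dopamine neurons, whose transporter Slc6a3 was all but absent here. Next came Slc18a2, the vesicular monoamine transporter (0.13 ± 0.096, adjusted p = 0.812), and Gch1, which makes the cofactor of the hydroxylase (-0.34 ± 0.33, adjusted p = 0.829). Between the saline sets 1 of 6, Nr4a2, was called lower in numbers 1 and 2 (beside 9.66% of all genes), by -2.17 ± 0.48 (1.03 CPM on average, against 4.55 CPM; adjusted p = 0.00808 by edgeR).

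Over the 16 libraries Th followed the central amygdala list mean (r = 0.69, rho 0.70, adjusted permutation p = 0.0284 and 0.0450), with an r of 0.70 within the fentanyl and 0.74 within the saline libraries and 0.60 without the 2 farthest. Th and Vip had an r of 0.74 (adjusted permutation p = 0.0148) and a rho of 0.67 (adjusted permutation p = 0.0537), and 0.51 without the 2 farthest libraries. Their promoters, and that of Nos1, are shown since the first pair moved together at low counts and since Th and Nos1 each held the cyclic AMP response element TGACGTCA, which is in 1.83% of promoters. Vip lies at chr1:44470230-44470529 on the plus strand, Th at chr1:207508169-207508468 on the minus strand and Nos1 at chr12:44371788-44372087 on the minus strand of GRCr8. Capitals mark TGACGTCA (1 in Th, 1 in Nos1, 0 in Vip), TATAAA (3 in Vip) and GGGCGG (1 in Nos1). Only exact matches were counted, and Vip holds tgacgtct, which differs from TGACGTCA in its last base alone. Of the 10 genes 7 were in the promoter table; Cck, Calb1 and Calb2 were not.
Vip: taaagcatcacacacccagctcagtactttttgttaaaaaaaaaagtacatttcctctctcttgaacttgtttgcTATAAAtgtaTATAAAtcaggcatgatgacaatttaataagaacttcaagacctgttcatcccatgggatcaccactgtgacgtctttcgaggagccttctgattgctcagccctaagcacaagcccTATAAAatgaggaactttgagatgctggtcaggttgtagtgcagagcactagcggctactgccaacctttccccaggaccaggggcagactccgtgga
Th: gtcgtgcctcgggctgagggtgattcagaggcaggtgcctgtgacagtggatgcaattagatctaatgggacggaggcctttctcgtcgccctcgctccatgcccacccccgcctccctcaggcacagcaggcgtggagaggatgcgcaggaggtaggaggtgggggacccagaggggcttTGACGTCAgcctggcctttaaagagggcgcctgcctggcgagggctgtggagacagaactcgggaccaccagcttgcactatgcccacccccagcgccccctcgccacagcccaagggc
Nos1: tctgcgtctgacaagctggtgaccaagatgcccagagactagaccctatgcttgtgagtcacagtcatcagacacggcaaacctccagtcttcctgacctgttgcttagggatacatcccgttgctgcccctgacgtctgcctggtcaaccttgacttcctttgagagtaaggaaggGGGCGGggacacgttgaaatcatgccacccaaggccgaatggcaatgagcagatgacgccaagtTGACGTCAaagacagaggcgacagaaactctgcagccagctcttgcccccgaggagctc

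Among 33 other interneuron genes (transcription factors, GABA synthesis, channels and further markers), 31 were tested and none was called between the exposures. Over both sexes 13 had a log2 fold change above 0 and 18 had one below 0, with a median of -0.14. The smallest p over both sexes was that of Maf, a transcription factor of interneuron development (0.31 ± 0.12, adjusted p = 0.567). Cnr1, a cannabinoid receptor of cholecystokinin basket cells among other neurons, followed (0.72 ± 0.30, adjusted p = 0.639). The third was Crhbp, which binds corticotropin-releasing factor (-0.56 ± 0.29, adjusted p = 0.728). Sst, which marks the somatostatin class, had 104 ± 37.6 CPM in the fentanyl and 97.7 ± 56.0 CPM in the saline libraries (SD, n = 8 each; adjusted p = 0.941). In females the smallest p were those of Dlx5 (1.18 ± 0.34), Dlx6 (1.15 ± 0.42) and Npas1 (-1.72 ± 0.68), transcription factors of forebrain GABAergic neurons, each with an adjusted p of 0.333.

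Between the saline sets 3 of these 31 genes were called higher and 10 lower in numbers 1 and 2, beside 8.27% and 9.66% of all genes, with a median log2 fold change of -0.39 beside -0.01 for all genes. The higher ones were Htr3a, a serotonin receptor of interneurons derived from the caudal ganglionic eminence (1.20 ± 0.21), Dlx5 (0.87 ± 0.18) and Dlx6 (1.05 ± 0.23). The lower ones held Lhx6, Nkx2-1 and Sox6, transcription factors of the medial ganglionic eminence from which parvalbumin and somatostatin interneurons arise (-1.22 ± 0.25, -1.29 ± 0.30 and -0.89 ± 0.25). They also held Kcnc1 and Kcnc2, the potassium channels of fast-spiking cells, at -1.27 ± 0.22 and -1.83 ± 0.49. Kcnc1 averaged 56.2 CPM in numbers 1 and 2 and 136 CPM in numbers 9 to 12. Others were Npas1 (-2.07 ± 0.38), Dlx1 (-0.62 ± 0.18), Adarb2 (-1.20 ± 0.37) and Nr2f2 (-1.33 ± 0.41), of which Adarb2 and Nr2f2 are used as markers of the caudal lineage. Adjusted p-values ran from 0.00250 for Kcnc1 to 0.0374 for Nr2f2 by edgeR's quasi-likelihood test. Lhx6, Nkx2-1, Npas1 and Sox6 are also expressed by pallidal neurons. Of 6 cholinergic and pallidal markers, 5 were called lower in numbers 1 and 2 and all 6 were below 0, with a median log2 fold change of -1.36; their summed level was 92.8 and 82.8 CPM in numbers 1 and 2, against 109.9 to 346 CPM in numbers 9 to 12. Their part in these differences was not tested. Gad1 had 561 ± 112 CPM (SD, n = 2) and 640 ± 69.1 CPM (SD, n = 4) in these sets and was not among the calls.

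**Figure D4:**
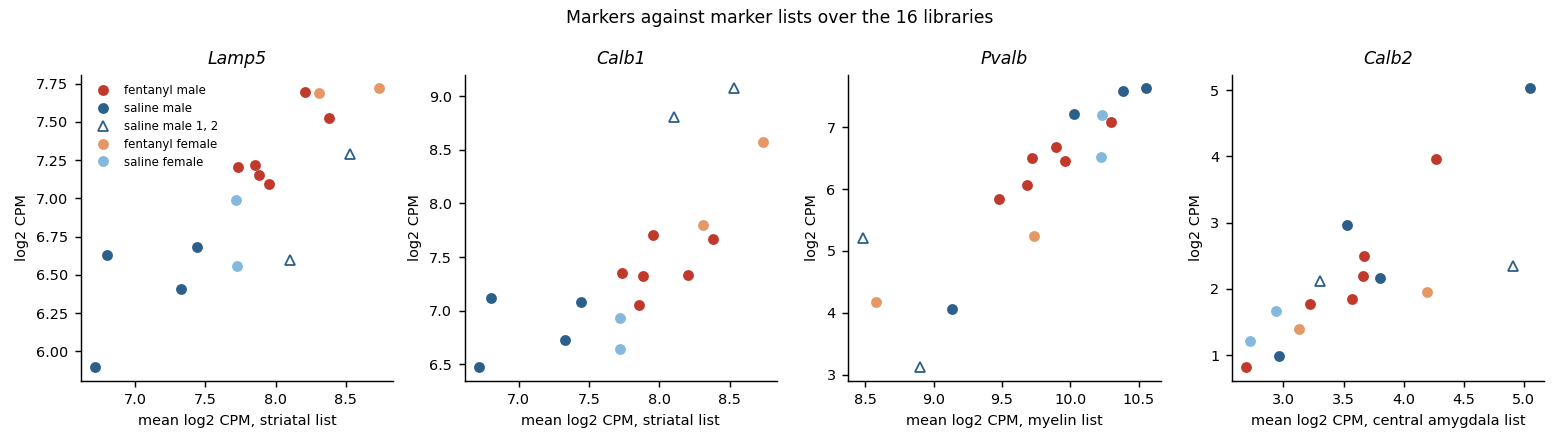
Log2 CPM of Lamp5, Calb1, Pvalb and Calb2 (y axes) against the mean log2 CPM of a marker list (x axes) in the 16 libraries, coloured by group, with saline males 1 and 2 as open triangles. The Pearson r is 0.83 for Lamp5 and 0.75 for Calb1 with the striatal list, 0.87 for Pvalb with the myelin list and 0.79 for Calb2 with the central amygdala list.

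Of 105 relations computed (45 between markers and 60 between a marker and a list mean), 9 had an adjusted permutation p under 0.05 by both r and rho, 2 between markers and 7 with a list, and all 9 had the same sign within the fentanyl and within the saline libraries. All are given above. The libraries of a saline number set, 2 and 4, were too few for an r of their own. Cck, Nos1 and Vip were in none of the 9. Among 13416 other genes above 1 CPM, the patterns most like that of Lamp5 over the 16 libraries included those of Gabrd, a subunit of extrasynaptic GABA-A receptors (r = 0.95), and Cacnb3, a calcium channel subunit (0.94). For Pvalb they were Fes (0.96), Cdc25a (0.94) and Mitf (0.94), and for Calb1 Mcu, the mitochondrial calcium uniporter (0.96), Dnajb5 (0.96) and Sertad4 (0.96). For Calb2 they were Fxyd6 (0.98), Doc2a (0.95) and Catsperg (0.93), for Reln Stk26 (0.91), Ptk7 (0.90) and Crlf3 (0.90), and for Npy Scg5, a chaperone of prohormone processing (0.91), B9d2 (0.91) and Bcas2 (0.88). For Cck they were Ube2s (0.92), Arfip2 (0.91) and Cdc34 (0.90), and for Nos1 Smim10l1 (0.94), Zdhhc5 (0.93) and Aar2 (0.92). The low markers had looser matches: Ttc30a (0.85), Zfp853 (0.84) and Tbr1, a transcription factor of glutamatergic neurons (0.82), for Vip, and Cul7 (0.85), Fam104b (0.84) and Dkk4 (0.83) for Th, among 13417 genes each. These r describe genes picked for their likeness and carry no test.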

How the data were processed

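Poly(A) RNA of 16 rats was sequenced after library preparation with a NEBNext kit, per the labels' protocols. Trimmomatic, STAR, HTSeq, DESeq2 and the build rn7 are named per the submitters' processing notes. Tool versions, the annotation and the strand setting were not given in the sources used here; overlapping genes may therefore share or lose reads. The deposited read counts are whole numbers without normalization, 1 column per library, and columns were matched to animals through the labelled library names. No 2 libraries agreed within sampling noise (smallest chi-square per gene 4.08). The 10 markers and the companion lists were chosen with earlier results of these data known.

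The counts were tested with edgeR 4.0.16 under R 4.3.3 (filterByExpr, minimum 0.603 CPM; TMM; robust quasi-likelihood fit), with Benjamini-Hochberg adjustment over all genes tested and a threshold of 0.05. A sex term was part of the fit over both sexes. Male, female and difference contrasts came from a fit of the 4 groups, and that of saline number sets from a fit of 5 groups; in both, groups of 2 share the spread of the others. SE is the log2 fold change over the square root of F. Correlations used log2 CPM with a prior count of 2 and 100000 permutations, or all orders within an exposure, 2-sided (numpy 2.4.6). Named companions were those called and the 3 with the smallest p per list, while Sst, Gad1, Gad2, Slc17a7 and the tissue markers were chosen after their values were seen. Genes alike in pattern were the 3 with the highest Pearson r, among tested genes averaging at least 1 CPM with no provisional symbol. Some genes that meet these rules are not reported here. The edgeR steps were tested on simulated data. Promoters are RefSeq's in GRCr8 and matched 7 of 10 genes by symbol. Alternatives were RLE factors, no count filter, DESeq2 1.42.0, limma 3.58.1 voom with quality weights, a replicate block, no sex term, 1 sex or the saline males alone, saline number subsets and each library left out.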

Additional observations from a re-analysis of the deposited data

Results flagged for a closer look

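Nos1 in fentanyl males had 1 library far from the others of its group: replicate 2, at 3.23 CPM, against 14.7 to 22.2 CPM in the other 5. The gap to the nearest library was 0.785 of the range on the log2 scale, above the critical value of 0.625 for 6 libraries. In all, 20 groups of 6 libraries (10 markers in fentanyl males and in saline males) were looked at, and chance alone gives about 1 such library.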

How the results depend on the processing

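Of the results for single markers under all alternatives, 1039 kept their direction and side of the threshold, 72 changed sign, 8 gained and 6 lost a call; the cause was not tested. Gained calls are those of Lamp5 and Calb1, and lost ones those of Pvalb and Reln, given with their comparisons. Among the changed signs, Calb1 over both sexes without saline males 1 and 2 and Pvalb in males without 9 to 12 were called too. Without the filter on low counts, Pvalb between the saline sets had -2.62 and an adjusted p of 0.099 by edgeR. Lamp5 between the exposures stayed above 0 under every alternative run. Vip (0 to 74 reads) and Th (1 to 34 reads) are limited by depth.

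Over both sexes, the genes called were 87 by DESeq2, 1031 by limma voom with quality weights, 1226 without the saline males numbered 1 and 2, and 4 without those numbered 9 to 12, against 14; the markers among them were 1, 1, 2 and 0. In males they were 43, 87, 71 and 955, against 7, with 0, 1, 1 and 2 markers. In females DESeq2 called 20 genes, and a fit of the females alone 65 with 1 marker, against 0. For the difference of the sexes DESeq2 called 4, against 0. Between the saline sets limma voom called 5730 genes and a fit of the saline males alone 2116, against 3201.

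Signs that changed are given as log2 fold changes. Over both sexes limma voom gave Cck -0.16, Nos1 0.38, Calb1 0.46, Calb2 0.066 and Reln 0.23, and no filter gave Nos1 0.00065. Without saline males 1 and 2, Nos1 was 0.078, Calb1 0.81 and Reln 0.53; without 9 to 12, Pvalb was 0.16, Vip 0.60 and Calb2 0.28. In males limma voom gave Nos1 0.43, Calb1 0.22 and Reln 0.15. Without saline males 1 and 2, Nos1 was 0.11, Calb1 0.55 and Reln 0.48; without 9 to 12, Pvalb was 1.99 and Calb2 0.30. Limma voom also gave Nos1 -0.33 for the difference of the sexes and Th 0.093 between the saline sets.

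With 1 library left out at a time, the genes called ran from 9 to 29 over both sexes, 4 to 9 in males, 0 to 5 in females, 0 to 5 for the difference and 193 to 4229 between the saline sets, and the markers called from 0 to 1 over both sexes and 1 to 3 between the saline sets. Ranges that crossed 0 over both sexes were those of Cck (-0.079 to 0.22), Nos1 (-0.11 to 0.16), Calb1 (-0.22 to 0.30), Calb2 (-0.94 to 0.28) and Reln (-0.30 to 0.27). In males they were Pvalb (-0.39 to 0.17), Nos1 (-0.15 to 0.21), Calb2 (-1.34 to 0.29) and Reln (-0.49 to 0.14). In females they were Npy (-0.042 to 1.18), Cck (-0.065 to 1.36), Nos1 (-0.51 to 0.83), Calb2 (-0.067 to 0.51) and Reln (-0.087 to 1.12). For the difference they were Npy (-0.34 to 0.89), Nos1 (-0.50 to 0.84) and Calb2 (-0.036 to 1.59), and between the saline sets Npy (-0.063 to 0.85), Nos1 (-0.050 to 0.81) and Th (-0.64 to 0.12).

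Same-numbered replicates did not pair in males: the correlations of their deviations were 0.209, 0.015, 0.155, -0.0405, -0.0694 and 0.0628. In females the value was -0.172 for each pair. It cannot show whether replicates pair, since with 2 libraries per group the deviations from the group mean mirror each other. With a replicate block, 7 genes were called over both sexes, 3 in males and 0 in females and for the difference, with 0 markers. In that block fit Nos1 was 0.094, Calb1 0.27 and Reln 0.12 over both sexes, Pvalb 0.59 and Nos1 0.11 in males, and Npy -0.00062 and Nos1 -0.078 for the difference. With the pairing crossed in females, chosen after seeing the data, 0 genes were called. No paired analysis was possible for the saline sets because they share no numbers.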
